A study of Homo sapiens with 6 samples.

Results

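The AP-1 transcription factor genes are JUN, JUNB and JUND of the Jun family, FOS, FOSB, FOSL1 and FOSL2 of the Fos family, and the related genes ATF2 and MAFF. They were taken by symbol, 9 of the 36517 genes in the count table, and all 9 had a row. Of these, 8 passed the filter on low counts, and FOSL1 did not. MDA-MB-453 is a human breast cancer cell line. Both groups were MDA-MB-453 cells that had received a short hairpin RNA by lentivirus, and the labels place all of them at day 3 without naming the starting point. The control group carried a non-targeting hairpin and the shtRF group a hairpin against tRF-1-Ser, a small fragment cut from a precursor of serine transfer RNA, with 3 libraries in each group. The comparison asks which messenger RNAs differed when this fragment was targeted. The libraries do not measure the fragment itself, so the knockdown could not be checked in them, and the groups rest on the sample titles. The paper reports a separate qPCR check of knockdown efficiency and describes the sequenced knockdown cells as stable. The sources used here do not say whether the 3 libraries of a group came from separate transductions or whether the cells were 1 clone, so p-values measure the spread between these libraries, which may be technical.

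AP-1 is a dimer of basic leucine zipper proteins. Jun proteins pair with each other, with Fos proteins or with ATF proteins, whereas Fos proteins need a Jun partner to bind DNA. Jun and Fos dimers favour the site TGANTCA with C or G at N, and dimers that hold ATF2 favour TGACGTCA. FOS and JUN are induced within minutes by growth factors and stress, JUN is activated by the JNK kinases, and MAFF is a small Maf protein that lacks a transactivation domain.

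The libraries held 63541413 to 78917459 counts, a 1.24-fold range. Of 19628 genes tested with edgeR, 4046 (20.6%) were higher and 3704 (18.9%) lower in shtRF cells at a Benjamini-Hochberg adjusted p under 0.05, so that 39.5% passed the test in either direction. Counts of 1 to 4 were even numbers in 74.2% to 77.1% of cases, against 49.7% to 50.7% of counts of 1000 or more. All 9 markers of the labelled cells, among them FOXA1 and ERBB2, had at least 1 RPKM, a count scaled for exonic length and library size, in every library, and their summed level ranged from 1140 to 1176 RPKM in control and from 1328 to 1413 RPKM in shtRF libraries. Of 11 markers of fibroblasts, leukocytes, endothelium and basal breast cells, 1 reached 1 RPKM in every library (COL1A1). DCN and CD3E had at most 2 counts in any library, KRT14 at most 12 and KRT5 at most 24. TP63, a basal marker, had 218, 203 and 208 counts in control and 117, 124 and 154 in shtRF libraries. Of the 11, 4 were tested, 2 were lower in shtRF cells and 0 higher, 50% beside 39.5% of all tested genes. The lower ones were COL1A1 (log2 fold change -0.62, edgeR adjusted p 2.88e-07) and TP63 (-0.54, edgeR adjusted p 0.0201). The summed level was 3.52 to 4.17 RPKM in control and 2.37 to 2.46 RPKM in shtRF libraries. The part of these markers in the results below was not tested. In bulk libraries such as these, fewer cells that express a gene and less RNA per cell cannot be told apart.

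Among the 8 AP-1 genes tested, JUN and JUNB were higher in shtRF cells, ATF2 and FOS were lower, and JUND, FOSB, FOSL2 and MAFF did not pass the test. The called share was thus 4 of 8 genes, or 50%, beside 39.5% of all tested genes. Their median log2 fold change was 0.10, beside -0.0025 over all tested genes. FOS was the 1 member called with a log2 fold change beyond 1 in size, as 5.77% of all tested genes were. JUN, JUNB, FOS, FOSL2 and ATF2 had control and shtRF libraries that did not overlap in CPM, the count scaled for library size, a property that 48.7% of all tested genes shared. The changes of JUN, JUNB and ATF2 passed the test under every alternative setting tried, while that of FOS did not. For ATF2 the margin was small in some settings.

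**Figure D1:**
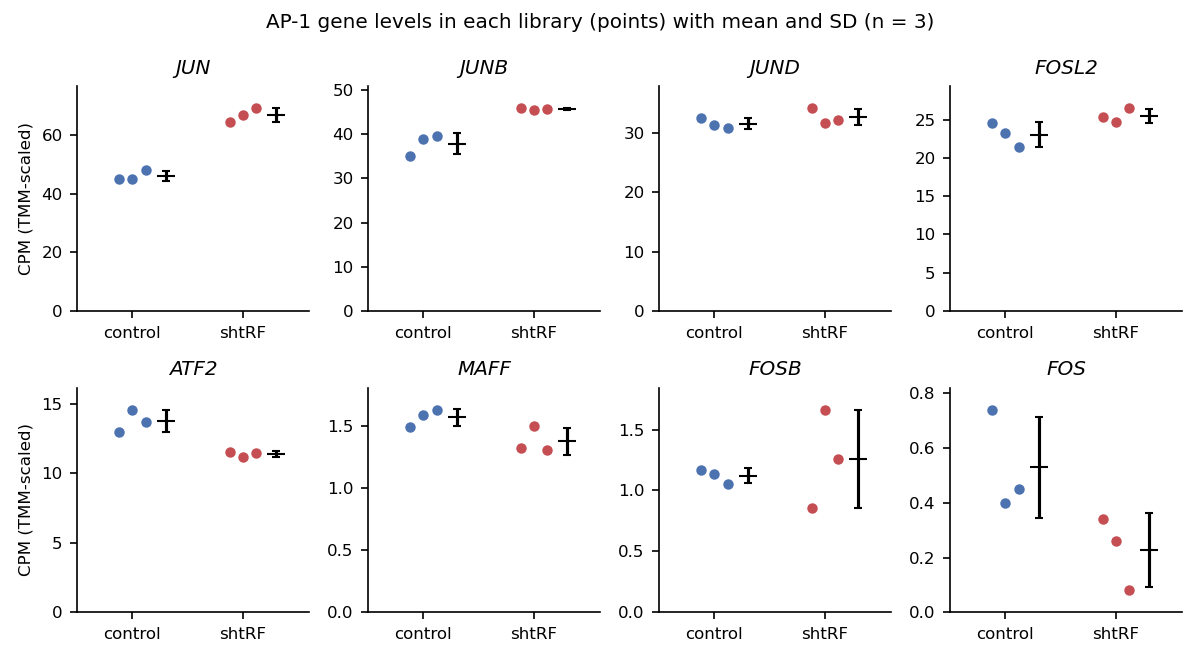
Level of the 8 tested AP-1 genes in each library, in CPM on axes that start at 0 and differ between panels. Points are the 3 control and 3 shtRF libraries, and the bars beside them give the mean and SD. The groups stand apart for JUN, JUNB, FOSL2, ATF2 and FOS, and FOS lies below 1 CPM in all 6 libraries.

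JUN encodes c-Jun, the founding Jun protein and the principal JNK substrate. The gene (chr1:58780788-58784327, GRCh38, minus strand) is a single exon of 3540 bases. Its level was 45.0, 45.1 and 48.1 CPM in the control libraries and 64.4, 67.0 and 69.2 CPM in the shtRF libraries. Every shtRF library lay above every control library, and the gap between groups was wider than the spread within either. The mean rose from 46.1 ± 1.74 to 66.9 ± 2.37 CPM (SD, n = 3 each), and the level in the edgeR fit was 45.1% higher. In the edgeR quasi-likelihood test the log2 fold change was 0.54 ± 0.06 (SE, 95% interval 0.42 to 0.65), with an adjusted p of 8.47e-08. This was the largest rise among the 8 genes tested.

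JUNB encodes a Jun protein that is a weaker activator than c-Jun on many promoters and can oppose it. It lies on chromosome 19 (chr19:12791496-12793315, plus strand) as a single exon of 1820 bases. Control libraries held 35.1, 38.8 and 39.6 CPM, and shtRF libraries 45.8, 45.4 and 45.7 CPM. The groups did not overlap, and the shtRF libraries were closer to each other than the control libraries were. The mean rose from 37.8 ± 2.42 to 45.6 ± 0.226 CPM (SD, n = 3 each), a fitted level 20.5% higher, with a log2 fold change of 0.27 ± 0.06 (SE, 95% interval 0.15 to 0.39) and an edgeR adjusted p of 0.000929. Of its exonic bases, 14.2% are shared with HOOK2, a gene on the opposite strand with 284 CPM in control and 314 CPM in shtRF cells (log2 fold change 0.15, edgeR adjusted p 0.0705). The library kit keeps strand, but the strand setting of the counting is not given in the sources used here. If HOOK2 reads were spread evenly and counted for both genes, they would make up 29.0% to 39.4% of the JUNB counts of a library. With that amount taken off, an alternative chosen after seeing the data, the log2 fold change of JUNB was 0.32, with an edgeR adjusted p of 0.0032.

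JUND encodes the third Jun protein, which many resting cells express at a steady level. The gene (chr19:18279760-18281622, minus strand) is a single exon of 1863 bases. Control libraries had 32.6, 31.3 and 30.9 CPM and shtRF libraries 34.1, 31.6 and 32.2 CPM. The groups overlapped. The means were 31.6 ± 0.901 and 32.7 ± 1.31 CPM (SD, n = 3 each), and the log2 fold change of 0.05 ± 0.06 (SE) had an edgeR adjusted p of 0.569. Its 95% interval, -0.08 to 0.18, did not reach the value of JUNB or of JUN, but the differences between the 3 genes were not tested in the fit.

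**Figure D2:**
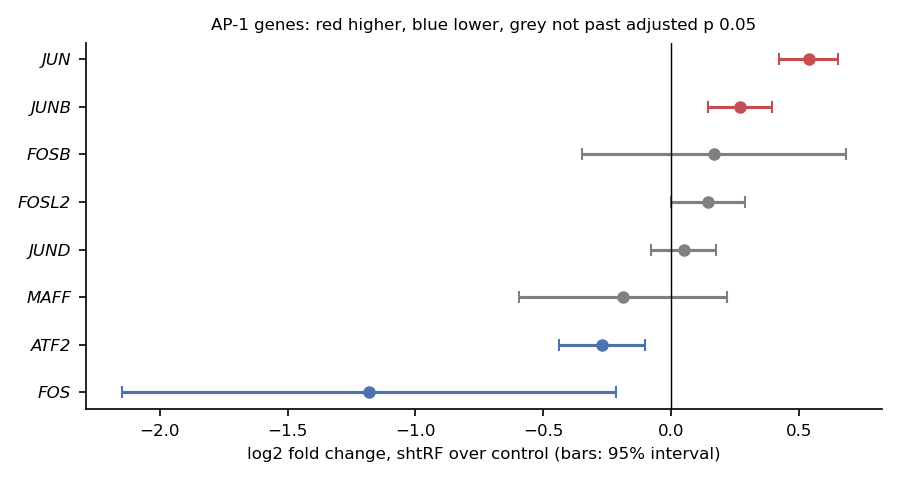
Log2 fold change (shtRF over control) of the 8 tested AP-1 genes from the edgeR fit, with 95% confidence intervals as bars. The intervals of JUN and JUNB lie above 0, those of ATF2 and FOS lie below 0, and the interval of FOS, from -2.15 to -0.21, is the widest. The interval of FOSL2 starts just above 0, at 0.00044, though FOSL2 did not pass after adjustment.

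FOS encodes c-Fos, a short-lived protein induced by serum and stress. The gene (chr14:75278774-75282230, plus strand) has 3238 exonic bases in 3 blocks. It was counted rarely, with 48, 30 and 36 counts in the control replicates, against 24, 18 and 5 in those of the shtRF group. These correspond to 0.738, 0.397 and 0.451 CPM in control and 0.342, 0.262 and 0.0806 CPM in shtRF cells. Both mates of a read pair seem to have been counted, so the FOS counts would stand for fewer read pairs. The groups did not overlap, although the lowest control and the highest shtRF library were close, and control replicate 1 and shtRF replicate 3 stood farthest from the other group. The mean fell from 0.529 ± 0.183 to 0.228 ± 0.134 CPM (SD, n = 3 each), and the level in the edgeR fit was 55.9% lower. The log2 fold change was -1.18 ± 0.46 (SE, 95% interval -2.15 to -0.21), with an edgeR adjusted p of 0.0484. The call rested on single libraries. Without control replicate 1 the log2 fold change was -0.88 (edgeR adjusted p 0.232), and without shtRF replicate 3 it was -0.79 (edgeR adjusted p 0.211). The adjusted p was also above the threshold without control replicate 2 (edgeR, 0.0543), control replicate 3 (edgeR, 0.0644) or shtRF replicate 2 (edgeR, 0.0834), and in DESeq2 (0.0818).

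FOSB encodes a Fos protein with a truncated splice form. The gene (chr19:45467995-45475179, plus strand) had 1.17, 1.14 and 1.05 CPM in control and 0.854, 1.66 and 1.26 CPM in shtRF libraries. The shtRF libraries lay on both sides of the control libraries. The means were 1.12 ± 0.0603 and 1.26 ± 0.403 CPM (SD, n = 3 each), and the log2 fold change of 0.17 ± 0.25 (SE, 95% interval -0.35 to 0.68) had an edgeR adjusted p of 0.637.

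FOSL1, which encodes Fra-1 and is abundant in many invasive basal breast cancer lines, was hardly detected. The gene (chr11:65892049-65900573, minus strand) was counted 2, 2 and 1 times in control, against 2, 0 and 2 times in shtRF libraries. All 6 values lie under 3 counts, which would be fewer read pairs if both mates were counted. The gene did not pass the filter on low counts, so no fold change is given.

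FOSL2 encodes Fra-2. The gene (chr2:28392448-28417312, plus strand, 7 exon blocks, 7157 bases) had 24.5, 23.2 and 21.4 CPM in control and 25.3, 24.6 and 26.5 CPM in shtRF libraries. The groups did not overlap, but the highest control and the lowest shtRF library were 24.5 and 24.6 CPM. The means were 23.0 ± 1.59 and 25.5 ± 0.921 CPM (SD, n = 3 each), with a log2 fold change of 0.14 ± 0.07 (SE, 95% interval 0.00044 to 0.29). The unadjusted p of 0.0494 from edgeR became 0.106 after adjustment over all tested genes, so FOSL2 did not pass.

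ATF2 encodes a partner of c-Jun that is itself phosphorylated by JNK and p38 kinases. It spans chr2:175072250-175168382 on the minus strand and has 5751 exonic bases in 21 blocks. Control libraries held 13.0, 14.5 and 13.7 CPM, and shtRF libraries 11.6, 11.2 and 11.5 CPM. Each shtRF library lay below each control library. The mean fell from 13.7 ± 0.782 to 11.4 ± 0.207 CPM (SD, n = 3 each), a fitted level 17.1% lower, with a log2 fold change of -0.27 ± 0.08 (SE, 95% interval -0.44 to -0.10) and an edgeR adjusted p of 0.0108. Of the exonic bases of ATF2, 4.28% are shared with AC096649.2, whose log2 fold change was -0.37 (edgeR adjusted p 0.314).

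MAFF (chr22:38200767-38216511, plus strand) had 1.49, 1.59 and 1.63 CPM in control and 1.32, 1.50 and 1.31 CPM in shtRF libraries. The groups overlapped by a single pair of libraries. The means were 1.57 ± 0.0707 and 1.38 ± 0.107 CPM (SD, n = 3 each), and the log2 fold change of -0.19 ± 0.20 (SE, 95% interval -0.60 to 0.22) had an edgeR adjusted p of 0.484.

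Several AP-1 genes carry AP-1 or ATF sites near their own start, and the JUN promoter is a textbook case of regulation by its own product. The windows from 250 bases before to 50 bases after each RefSeq start, on GRCh38.p14, were matched for 7 of the 9 genes, with 2 windows for MAFF and none for FOSL1 or ATF2. The RefSeq starts are not the ends of the genes as counted, so the sites shown for JUN, FOSL2 and MAFF lie inside the gene spans given above, while that of JUND lies outside its span. The windows were searched on both strands for TGANTCA, TGACGTCA and TGACATCA. The search took any base at N, which is wider than the favoured C or G. The string TGACATCA, the form in the JUN promoter, was added after the windows had been seen. The sites below are shown because they place the motif in the genes described above, with the motif in capitals and 10 flanking bases on each side, 5′ to 3′ on the strand of the gene.
JUN (chr1:58784097-58784124, minus strand, motif 67 bases before the RefSeq start): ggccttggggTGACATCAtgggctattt
JUND (chr19:18281805-18281832, minus strand, motif 200 bases before the RefSeq start): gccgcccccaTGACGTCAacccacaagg
FOSL2 (chr2:28392852-28392878, plus strand, motif at base 5 after the RefSeq start): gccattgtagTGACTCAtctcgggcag
MAFF (chr22:38201930-38201957, plus strand, motif 54 bases before the RefSeq start of the 1 window that held it): gccgggtcggTGACGTCAccgcatgact
None of these letter strings was in the windows of JUNB, FOS or FOSB, which says only that these letters are not in this window. Among all 35116 windows of 300 bases, 7.71% held TGANTCA with any base at N, 1.85% held TGACGTCA and 2.61% held TGACATCA. Of the 4 genes with a match, JUN was higher in shtRF cells and JUND, FOSL2 and MAFF did not pass the test.

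Levels of different genes were compared as RPKM, which divides by exonic length and by the library total. It lacks the further scaling (TMM) used for CPM, so differences between groups are not the same on the 2 scales. JUNB is given as counted. Evenly spread HOOK2 reads, if counted for both genes, would make up 29% to 39.4% of its counts in a library. Its rank below therefore depends on whether those reads were counted. In control cells JUNB had the highest level at 21.2 ± 1.34 RPKM, followed by JUND at 17.3 ± 0.522 and JUN at 13.2 ± 0.428 RPKM (SD, n = 3 each). FOSL2 was far lower at 3.28 ± 0.238 RPKM, then ATF2 at 2.43 ± 0.149, MAFF at 0.285 ± 0.0125, FOSB at 0.205 ± 0.012 and FOS at 0.166 ± 0.0574 RPKM (SD, n = 3 each). Among neighbours in this order, the libraries overlapped for FOSB and FOS. In shtRF cells the order of JUN and JUND was exchanged, with 24.6 ± 0.714 RPKM for JUNB, 18.5 ± 0.471 for JUN and 17.2 ± 1.11 for JUND (SD, n = 3 each), and the libraries of JUN and JUND overlapped. The libraries of MAFF and FOSB overlapped in shtRF cells too.

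**Figure D3:**
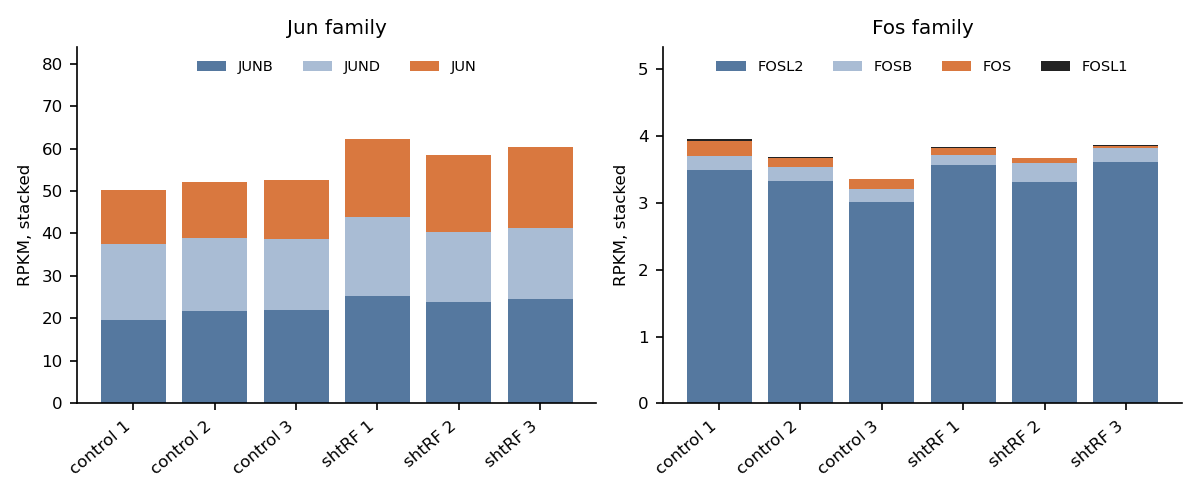
RPKM of the Jun family genes (left) and the Fos family genes (right), stacked in 1 bar for each of the 6 libraries, on axes that start at 0 and differ between panels. The Jun family bars are taller in all 3 shtRF libraries, whereas the Fos family bars overlap between groups and consist mostly of FOSL2. JUNB is shown as counted, with no HOOK2 reads taken off.

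The Jun family total was 50.4, 52.1 and 52.5 RPKM in control and 62.1, 58.4 and 60.4 RPKM in shtRF libraries, so the groups did not overlap. This total and the shares below include any HOOK2 reads counted for JUNB. JUN made up 25.7%, 25.1% and 26.2% of that total in control and 29.5%, 31.1% and 31.6% in shtRF libraries. Its share was higher in each shtRF library than in any control library. The mean share went from 25.6 ± 0.553 to 30.7 ± 1.08% (SD, n = 3 each), a difference of 5.09 percentage points with an exact permutation p of 0.1 (two-sided), the smallest that 3 against 3 libraries allow, so the design cannot reach 0.05. The share of JUND went from 33.4 ± 1.75 to 28.5 ± 1.02%, and that of JUNB was 40.9% in control and 40.8% in shtRF cells.

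The Fos family total was 3.95, 3.68 and 3.36 RPKM in control and 3.84, 3.67 and 3.87 RPKM in shtRF libraries, and the groups overlapped. FOSL2 itself overlapped in RPKM, with 3.49 in control replicate 1 and 3.31 in shtRF replicate 2, though not in TMM-scaled CPM. FOSL2 held most of the family total, with 89.6 ± 1.14% in control and 92.0 ± 1.72% in shtRF cells (SD, n = 3 each; two-sided exact permutation p = 0.2). The share of FOS was 4.50 ± 1.25% in control and 1.84 ± 1.10% in shtRF cells (SD, n = 3 each). Summed over each family, Jun RPKM was 14.1 times Fos RPKM in control and 15.9 times in shtRF cells, with JUNB as counted. The log2 ratio of Fos to Jun was -3.82 ± 0.15 in control and -3.99 ± 0.03 in shtRF cells (SD, n = 3 each), with a two-sided exact permutation p of 0.2. These transcript sums say nothing of the amount of each protein.

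Of 13 other genes whose products can join AP-1 dimers, 12 were tested, 4 were higher and 2 lower in shtRF cells, 50% beside 39.5% of all tested genes, with a median log2 fold change of 0.17. ATF3, a stress-induced factor that can repress AP-1 sites, had 12.7, 11.3 and 5.20 CPM in control and 3.47, 4.43 and 5.29 CPM in shtRF libraries. Its groups overlapped because control replicate 3 was low, and the log2 fold change of -1.15 ± 0.21 (SE) had an edgeR adjusted p of 0.000173. BATF, which pairs with Jun proteins in lymphoid cells, rose from 4.17 ± 0.168 to 7.92 ± 0.175 CPM (SD, n = 3 each; log2 fold change 0.93 ± 0.11 SE, edgeR adjusted p 3.38e-07). MAFK, a small Maf like MAFF, rose from 17.8 ± 1.11 to 25.9 ± 1.47 CPM (SD, n = 3 each; edgeR adjusted p 2.96e-06), and 18.2% of its exonic bases are shared with TMEM184A.

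Of 22 upstream regulators of AP-1, all tested, 8 were higher, 3 lower and 11 did not pass, so 50% were called beside 39.5% of all tested genes, with a median log2 fold change of 0.07. MAPK8 and MAPK9, which encode the JNK1 and JNK2 kinases, moved in opposite directions. MAPK8 had 7.06, 7.08 and 5.68 CPM in control and 4.10, 4.41 and 4.53 CPM in shtRF libraries (log2 fold change -0.60 ± 0.12 SE, edgeR adjusted p 0.00033). MAPK9 had 48.6, 51.7 and 53.6 CPM in control and 74.8, 74.9 and 74.6 CPM in shtRF libraries (log2 fold change 0.54 ± 0.06 SE, edgeR adjusted p 5.54e-08). The groups did not overlap for either gene. SRF, the serum response factor that acts on the FOS promoter, rose from 35.3 ± 2.83 to 49.9 ± 2.26 CPM (SD, n = 3 each; edgeR adjusted p 1.67e-06). ELK3, one of the ternary complex factors that bind beside SRF, fell from 5.05 ± 0.525 to 3.39 ± 0.141 CPM (SD, n = 3 each; edgeR adjusted p 0.000916).

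Immediate early genes are induced with FOS and JUN by the same stimuli. Of 24 listed, 21 were tested, 4 were higher, 4 lower and 13 did not pass, so 38.1% were called beside 39.5% of all tested genes, and the median log2 fold change was 0.09. EGR1 fell from 5.34 ± 0.479 to 1.63 ± 0.246 CPM (SD, n = 3 each; log2 fold change -1.71 ± 0.15 SE, edgeR adjusted p 6.19e-09). GADD45B, a stress sensor, fell from 6.79 ± 0.317 to 3.82 ± 0.707 CPM (SD, n = 3 each; edgeR adjusted p 2.34e-05). KLF4, a zinc finger factor of epithelial differentiation, rose from 4.24 ± 0.618 to 11.1 ± 1.02 CPM (SD, n = 3 each; log2 fold change 1.38 ± 0.11 SE, edgeR adjusted p 2.38e-09). PPP1R15A, which directs dephosphorylation of eIF2-alpha, rose from 72.4 ± 4.39 to 125.6 ± 9.40 CPM (SD, n = 3 each; edgeR adjusted p 8.67e-10).

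The 32 textbook AP-1 target genes had 31 rows in the table, and 16 were tested. The other 15 rows, among them those of the collagenase and stromelysin genes MMP1 and MMP3, had at most 20 counts in any library and were too low for the test. Of the 16, 6 were higher, 5 lower and 5 did not pass, so 68.8% were called beside 39.5% of all tested genes, and the median log2 fold change was -0.19. These counts cover the genes that passed the filter and not all listed targets. MMP13, a collagenase, fell from 9.03 ± 0.909 to 3.96 ± 0.523 CPM (SD, n = 3 each; log2 fold change -1.19 ± 0.12 SE, edgeR adjusted p 4.43e-08). VEGFA, the angiogenic growth factor, fell from 404.3 ± 55.0 to 183.6 ± 5.31 CPM (SD, n = 3 each; log2 fold change -1.14 ± 0.07 SE, edgeR adjusted p 4.29e-11). HMOX1, the haem-degrading oxygenase, rose from 4.80 ± 0.437 to 12.04 ± 1.62 CPM (SD, n = 3 each; log2 fold change 1.33 ± 0.11 SE, edgeR adjusted p 3.05e-09). EZR, which encodes the membrane-to-actin linker ezrin, rose from 1939 ± 80.9 to 3884 ± 279.6 CPM (SD, n = 3 each; log2 fold change 1.002 ± 0.062 SE, edgeR adjusted p 2.25e-11).

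**Figure D4:**
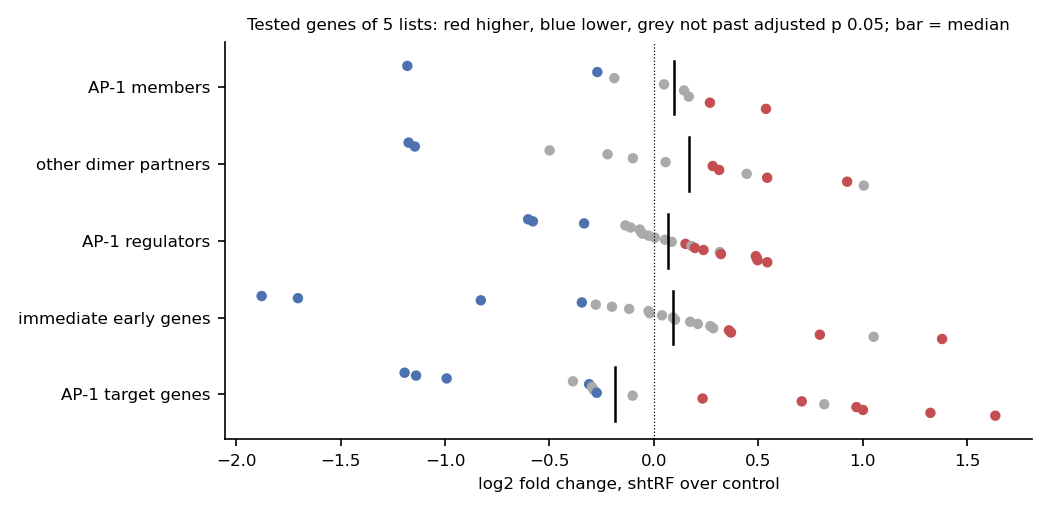
Log2 fold change (shtRF over control) of each tested gene in the AP-1 genes and the 4 related lists, with 1 point for a gene (red higher, blue lower, grey not past an adjusted p of 0.05) and the list median as a bar. Each list has genes above and below 0, and the medians lie between -0.19 for the target genes and 0.17 for the other dimer partners.

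The genes whose pattern over the 6 libraries was most like that of JUN were sought among 13184 tested genes with a mean of at least 2 CPM, by the root mean square difference of centred log2(CPM + 0.5) values. They were RAB4B (0.0159), GALNT7 (0.0169) and CAPN2 (0.0179), against a range of 0.61 on the log2 scale for JUN itself. RAB4B shares 32.5% of its exonic bases with the readthrough gene RAB4B-EGLN2. For FOS, with a range of 1.09 on that scale, they were TCTN2 (0.0651), TMEM143 (0.0792) and MORN1 (0.0885). None of the candidates tracked FOS as closely as the nearest genes tracked JUN. TCTN2, TMEM143 and MORN1 had log2 fold changes of -0.53, -0.58 and -0.46 in the edgeR fit, beside -1.18 for FOS. FOS lay below 1 CPM, so the added 0.5 narrowed its range, and genes at its level were not candidates.

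The adjusted p-values of the 8 genes across settings show which calls depended on the processing. JUN and ATF2 stayed past the threshold in all 14 and JUNB in all 15 alternatives, with JUN between 0.46 and 0.57 and ATF2 between -0.32 and -0.22 on the log2 scale. ATF2 came close to the threshold without control replicate 2 (edgeR adjusted p 0.0493) and without shtRF replicate 2 (edgeR adjusted p 0.0466). FOS was past the threshold in 6 of 13 alternatives, and could not be tested with a minimum of 10 counts in every library because shtRF replicate 3 had 5 counts. FOSL2 was not past it in any.

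**Figure D5:**
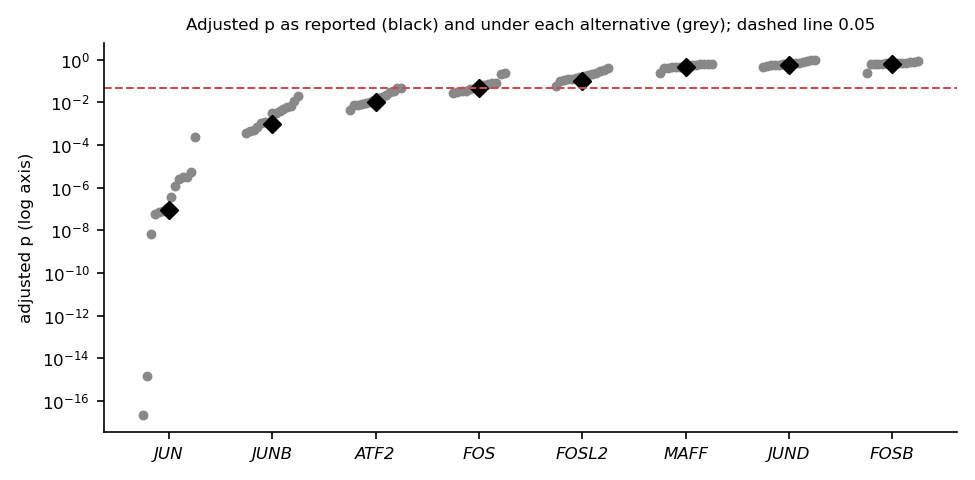
Adjusted p of each AP-1 gene on a log axis, as reported (black diamond) and under each alternative setting (grey points), with a dashed line at the threshold of 0.05. JUN, JUNB and ATF2 lie below the line throughout, FOS lies on both sides of it, and JUND, FOSB, FOSL2 and MAFF lie above it.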

How the data were processed

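Strand-specific mRNA libraries were sequenced as read pairs. Per the labels, the authors used Trimmomatic 0.36, featureCounts, Subread 1.5.1 and edgeR 3.12.1 with GRCh38. The aligner is not given in the sources used here. The authors deposited whole-number read counts per gene, not normalised, for all 6 libraries, and low counts were mostly even, so both mates of a pair seem to have been counted. The authors also deposited RPKM values. The copy used here held 4997 complete rows, and the 4991 matched by symbol equalled RPKM recomputed from the counts (relative tolerance 0.0001), so RPKM was recomputed for every gene.

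Counts were filtered with filterByExpr, scaled by TMM (factors 0.961 to 1.03) and tested with the quasi-likelihood test of edgeR 4.0.16 (R 4.3.3), with Benjamini-Hochberg adjustment over all 19628 tested genes. CPM are TMM-scaled. The scripts were tested on simulated data. The AP-1 genes, the 4 related lists and the marker lists were chosen with earlier results of these data known. From each related list the text names the 2 largest rises and 2 largest falls past the threshold with a mean of at least 1 CPM. A gene that this rule names is not reported here. It also names the 3 genes most alike in pattern to the member with the largest rise and to the one with the largest fall. Alternatives were other scalings and count filters, halved counts, DESeq2 1.42.0, limma-trend (limma 3.58.1) on log2(RPKM + 1), a replicate block and leaving out each library. Promoter letters came from RefSeq, and protein sequences were not used here.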

Additional observations from a re-analysis of the deposited data

How the results depend on the processing

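In each of the 14 alternatives, 2 of the AP-1 genes were higher in shtRF cells. The count of lower AP-1 genes was 2, and 1 with at least 10 counts in every library (where FOS was not tested), with DESeq2 and with limma-trend, and 1 to 2 with each library left out. The log2 fold change of FOS was -1.20 in DESeq2 (adjusted p 0.0818), -0.12 in limma-trend (adjusted p 0.0763) and -1.59 to -0.79 with each library left out (edgeR adjusted p 0.0341 to 0.232). Its scale in limma-trend is log2(RPKM + 1), which shrinks low genes. JUND turned to -0.0048 in limma-trend (adjusted p 0.954) and FOSB ranged from -0.08613 without shtRF replicate 2 (edgeR adjusted p 0.847) to 0.379 without shtRF replicate 1 (edgeR adjusted p 0.248), and the cause was not tested. The other dimer partners higher numbered 2 in limma-trend. Upper quartile scaling moved the share of calls that were higher from 52.2% to 45.7%, and limma-trend to 43.3%. Of 276 values for the AP-1 genes, lists and shares, 258 kept their direction and side of the threshold or stayed near the reported count.

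Same-numbered libraries correlated at 0.0418, 0.0102 and 0.0116 in their deviations from the group means, so the numbers were not taken to pair the samples. With the replicate number as a block, the log2 fold change was 0.54 for JUN, 0.27 for JUNB, -1.27 for FOS (edgeR adjusted p 0.0299) and -0.27 for ATF2, and the block changed no call among the 8 AP-1 genes. It moved the AP-1 regulators higher from 8 to 9 and the immediate early genes lower from 4 to 5. The low counts of FOS, FOSB, MAFF and FOSL1 limit what these libraries can show for those genes.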
